A study of Mus musculus with 366 samples.

Results

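Gene expression in the aorta was compared between A/J F1 and C57BL/6J F1 females of the Ath-HMDP, a panel of crosses between inbred mouse strains and a hyperlipidemic transgenic line. The groups were taken from the strain label: 3 arrays labelled A/J and 6 labelled C57BL/6J, of 366 arrays from 101 strains in all. Each array held the aorta of a separate mouse. All 45141 probe sets of the array were tested.

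Every mouse, in both groups, was the F1 offspring of its named strain and a C57BL/6J-background parent carrying the human transgenes APOE-Leiden and cholesteryl ester transfer protein (CETP). The A/J F1 therefore had 1 A/J and 1 C57BL/6J copy of each autosome, whereas the C57BL/6J F1 had 2 C57BL/6J copies, and no group without the transgenes was among these arrays. The females ate chow until 8 weeks of age and a Western diet for a further 16 weeks, so that tissue was taken at 24 weeks. The vessel was taken from the arch to the mid-abdomen and its peri-adventitial fat was cleaned off.

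The transgenes raise plasma cholesterol carried in remnant lipoproteins, and on a Western diet the aortic wall of such mice accumulates foam cells, which are macrophages loaded with cholesteryl ester. The healthy wall is built of contractile smooth muscle between elastic sheets, lined by endothelium and wrapped in an adventitia of fibroblasts, resident macrophages, mast cells and nerves. A/J and C57BL/6J carry different haplotypes of the major histocompatibility complex (MHC), whose class I and class II molecules present peptides to T cells.

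Contractile markers of the aortic wall were measured in all 9 arrays: the log2 signal of Acta2, smooth muscle actin, was 12.24, 11.94 and 11.74 in A/J F1 against 8.88 to 11.7 in C57BL/6J F1. RNA of brown adipocytes was measured in both groups as well: Ucp1, the uncoupling protein of brown fat, stood at 13.00, 12.83 and 12.99 in A/J F1 against 12.67 to 12.94 in C57BL/6J F1. The median of an array was between 3.25 and 3.32 on the log2 scale.

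One technical measure separated the groups completely. The mean log2 signal of the 14 bacterial hybridization control probe sets, which report RNA added at the hybridization step and not mouse RNA, was 9.67, 9.31 and 9.59 in A/J F1 against 8.32 to 8.66 in C57BL/6J F1. Over the whole series the arrays fell into a set of 207 at 9.05 or above and a set of 159 at 8.82 or below. All 3 A/J arrays were in the high set and all 6 C57BL/6J arrays in the low set, so within the 9 arrays the set and the strain cannot be told apart. Because 19 strains had arrays in both sets, the contrast was also fitted over 360 arrays of 95 strains with the set as a block, a check that was chosen after the data were seen. This fit is called the blocked fit, and its values are given beside the results.

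**Figure D1:**
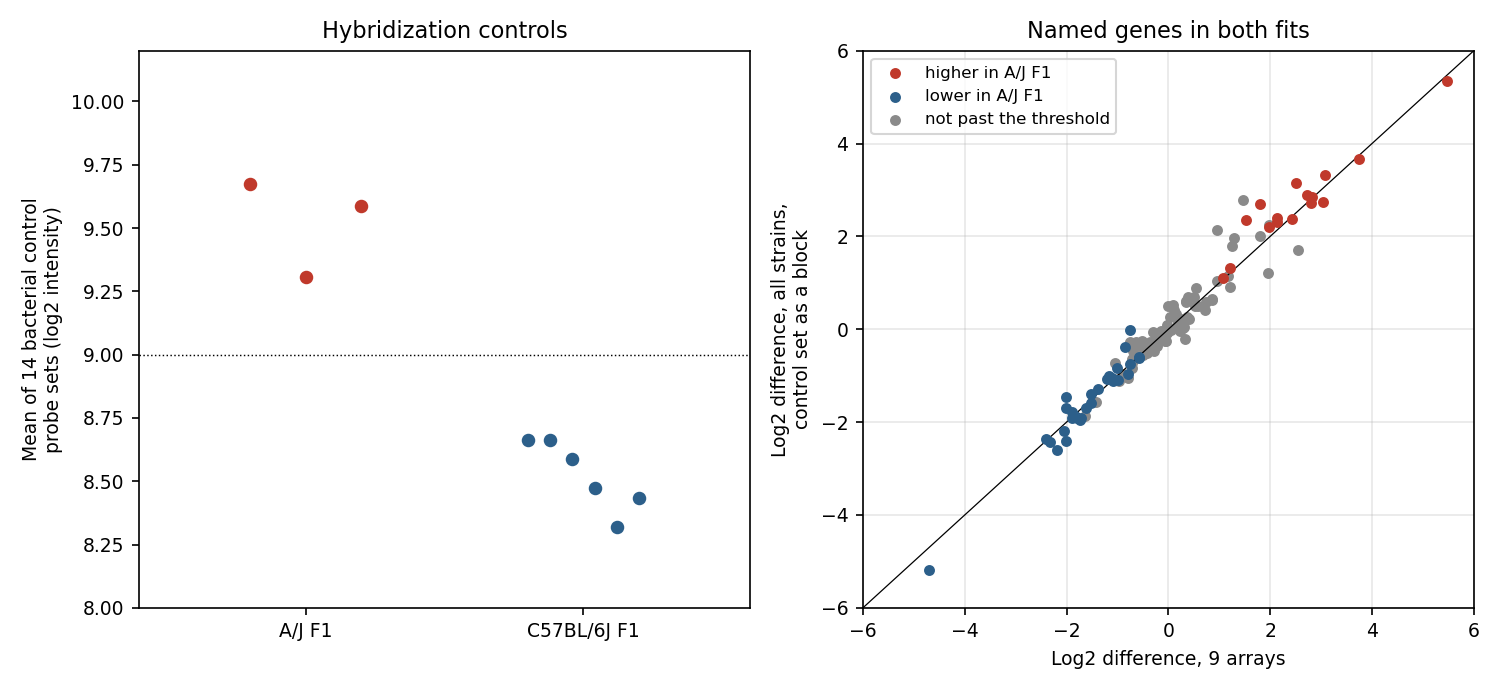
Left, the mean log2 signal of 14 bacterial control probe sets in each array, with 3 A/J F1 arrays at 9.31 to 9.67 and 6 C57BL/6J F1 arrays at 8.32 to 8.66; the dotted line at 9 divides the high from the low set. Right, the log2 difference (A/J F1 minus C57BL/6J F1) of the 130 named genes in the fit of 9 arrays (x axis) and in the fit of all strains with the set as a block (y axis), where most called genes lie near the diagonal and Sod3 lies at -0.01 in the blocked fit.

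Signal differed in both directions, with more probe sets lower than higher in A/J F1. A probe set can favour an allele, as described below for class I genes. The counts therefore measure binding to probes, and the part of allele differences in them was not tested. By limma with Benjamini-Hochberg adjustment over all probe sets, 254 (0.563%) were higher and 831 (1.84%) were lower at an adjusted p under 0.05. Differences beyond 2-fold numbered 85 among the higher and 140 among the lower. Of the probe sets with a single gene symbol, the higher ones named 142 genes and the lower ones 611. The arrays of the groups did not overlap for 253 of the higher and 828 of the lower probe sets. Since nearly every called probe set was apart in this way, the lack of overlap adds little to a call. Limited to 22570 brighter probe sets, the fit called 256 higher and 876 lower. The counts of calls in gene lists below, and of members on 1 side of 0, were not tested against such shares. The median log2 difference over all probe sets was -0.01.

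The counts leaned on single arrays. Without A/J replicate 3 they were 76 higher and 205 lower, and without A/J replicate 2 they were 572 and 480. The calls that held in each of the 9 fits that left out 1 array were 64 higher (25.2%) and 168 lower (20.2%). In the blocked fit 149 of the higher (58.7%) and 431 of the lower probe sets (51.9%) kept their call and direction, while 11 and 7 had the opposite sign.

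The largest difference was at H2-D1, which encodes a classical MHC class I heavy chain. Its log2 signal was 8.10, 8.38 and 7.66 in A/J F1, against a lowest of 2.38, a median of 2.53 and a highest of 2.94 in C57BL/6J F1. The groups stood far apart, with a log2 difference of 5.48 ± 0.17 (SE, limma adjusted p = 4.48e-07), and 5.36 in the blocked fit. No fold is given for H2-D1, H2-Ea or Mup3, since 1 group of each lay near or below the array medians of 3.25 to 3.32 and these values carry no measure of background.

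Only 2 of the 5 probe sets named H2-D1 rose. The brightest was at 10.12, 10.47 and 9.29 in A/J F1 against 10.29 to 11.03 in C57BL/6J F1, which did not pass the test (log2 difference -0.82, adjusted p = 0.122). Class I genes are close copies of each other and highly polymorphic, and probe sets of this kind can match several of them or favour 1 allele. Their values therefore measure binding to these probes, and the amount of class I RNA was not measured separately.

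H2-Ea, the alpha chain of the class II molecule I-E, which C57BL/6J mice are known not to express, was at 5.43, 6.73 and 5.04 in A/J F1. In C57BL/6J F1 it was at 2.85 to 3.3, with a median of 2.91. The groups did not overlap, and the log2 difference was 2.73 ± 0.30 (adjusted p = 0.00275; 2.89 in the blocked fit). This was 1 of 3 H2-Ea probe sets, and the others did not pass (0.62 with an adjusted p of 0.184 and 0.04 with 0.852). H2-Ea was the only 1 of 11 class II genes to pass, and 8 of the 11 had negative differences. H2-Aa, the alpha chain of the other class II molecule, was at 8.78, 9.71 and 9.09 in A/J F1 against 9.69 to 10.33 in C57BL/6J F1 (adjusted p = 0.109; 0.0316 without A/J replicate 2).

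Class I members on the same chromosome moved the other way. H2-Q10, a secreted class I molecule, was at 7.83, 7.63 and 7.34 in A/J F1 against 8.56 to 8.80 in C57BL/6J F1, with no overlap. It fell by 1.09 on the log2 scale (adjusted p = 0.00237). H2-K1, another classical heavy chain, was at 9.81, 10.69 and 9.41 in A/J F1 against 10.83 to 11.39 in C57BL/6J F1 and fell by 1.20 (adjusted p = 0.035) at 1 of its 4 probe sets, a call that was lost on leaving out A/J replicate 1 or 3 or C57BL/6J replicate 3, 4, 5 or 6 (adjusted p 0.0655 to 0.13). H2-Q10 and H2-K1 were the 2 of 11 measured class I genes that passed when each gene was read at its brightest probe set, and 10 of the 11 had negative differences.

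Glo1, which encodes the glyoxalase that detoxifies methylglyoxal and lies near the MHC, rose at all 3 of its probe sets. At the brightest its log2 signal was 9.46, 9.65 and 9.59 in A/J F1 against 8.27 to 8.63 in C57BL/6J F1, and the narrow ranges did not meet. The log2 difference was 1.07 ± 0.10 (adjusted p = 0.00101; 1.11 in the blocked fit).

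Gchfr, the feedback regulator of GTP cyclohydrolase, the enzyme that starts synthesis of the nitric oxide synthase cofactor tetrahydrobiopterin, was at 8.14, 7.64 and 7.96 in A/J F1. In C57BL/6J F1 its lowest, median and highest log2 signals were 3.47, 3.99 and 5.65. All A/J arrays were above all C57BL/6J arrays, with a log2 difference of 3.74 ± 0.42 (13.4-fold, adjusted p = 0.00275; 3.68 in the blocked fit). Ddah1, which degrades the nitric oxide synthase inhibitor asymmetric dimethylarginine, was at 5.0, 5.22 and 5.36 in A/J F1 against 3.73 to 4.25 in C57BL/6J F1. It rose by 1.22 (adjusted p = 0.00253), but in the blocked fit the difference of 1.32 had an adjusted p of 0.149. Of the 5 Ddah1 probe sets, 2 were called higher. Gchfr and Ddah1 were the only 2 of 15 nitric oxide and cGMP genes to pass, and the median over the 15 was 0.06.

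Gbp2b, a guanylate-binding protein of the interferon response, rose without the rest of its family. It was at 5.61, 6.43 and 5.56 in A/J F1 against 2.45 to 3.57, with a median of 2.6, in C57BL/6J F1. The groups did not overlap (log2 difference 3.07 ± 0.27, adjusted p = 0.000929; 3.31 in the blocked fit). None of the other 12 interferon-induced GTPases passed, and their members on either side of 0 gave the family a median of 0.00.

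Several of the largest increases were in genes of other functions. Ptprf, the receptor tyrosine phosphatase LAR, rose at all 3 of its probe sets and was at 8.09, 7.76 and 8.28 in A/J F1 against 4.14 to 6.16 in C57BL/6J F1 (log2 difference 3.03 ± 0.38, adjusted p = 0.0046). Abhd1, which encodes an alpha/beta hydrolase, was at 6.75, 6.33 and 6.80 in A/J F1 against 3.51 to 4.06 in C57BL/6J F1 (2.80 ± 0.14, adjusted p = 3.46e-05). The arrays of the groups did not overlap for either gene.

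Tspan18, a tetraspanin membrane protein, was at 8.32, 6.65 and 8.25 in A/J F1 against 3.95 to 5.46 in C57BL/6J F1 (2.82 ± 0.41, adjusted p = 0.010). A second Tspan18 probe set moved the other way, at 7.30 to 7.70 in A/J F1 against 8.32 to 9.27 in C57BL/6J F1 (-1.13, adjusted p = 0.0381). Of 474 called genes with several probe sets, 60 had 2 or more called the same way and 4 were called both ways, namely Prpf4b, Tor1aip2, Tspan18 and Zfp24.

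Ramp1, the accessory subunit of the receptor for the vasodilator calcitonin gene-related peptide, was at 7.79, 8.43 and 8.47 in A/J F1 against 5.0 to 6.65 in C57BL/6J F1 (2.50 ± 0.35, adjusted p = 0.00762). Fbp1, the gluconeogenic fructose bisphosphatase, was at 7.0, 6.85 and 7.61 in A/J F1 against 3.88 to 5.46 in C57BL/6J F1 (2.43 ± 0.36, adjusted p = 0.0112). Neither gene had overlapping arrays, but without A/J replicate 3 the adjusted p was 0.0509 for Ramp1, 0.0673 for Fbp1 and 0.0616 for Tspan18.

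Cuedc1, named for its ubiquitin-binding CUE domain, was at 5.88, 6.61 and 6.41 in A/J F1 against 3.52 to 4.77 in C57BL/6J F1 (2.14 ± 0.25, adjusted p = 0.00346). Tmem87a, a membrane protein of the Golgi, was at 6.99, 6.89 and 7.09 in A/J F1 against 4.40 to 5.35 in C57BL/6J F1 (2.14 ± 0.21, adjusted p = 0.00148). 2210408K08Rik was at 7.27, 7.11 and 7.27 in A/J F1 against 4.82 to 5.50 in C57BL/6J F1 (1.99 ± 0.15, adjusted p = 0.000363). The arrays of the groups were apart for each of these genes, and the A/J values of Tmem87a and 2210408K08Rik lay within 0.2 of each other.

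**Figure D2:**
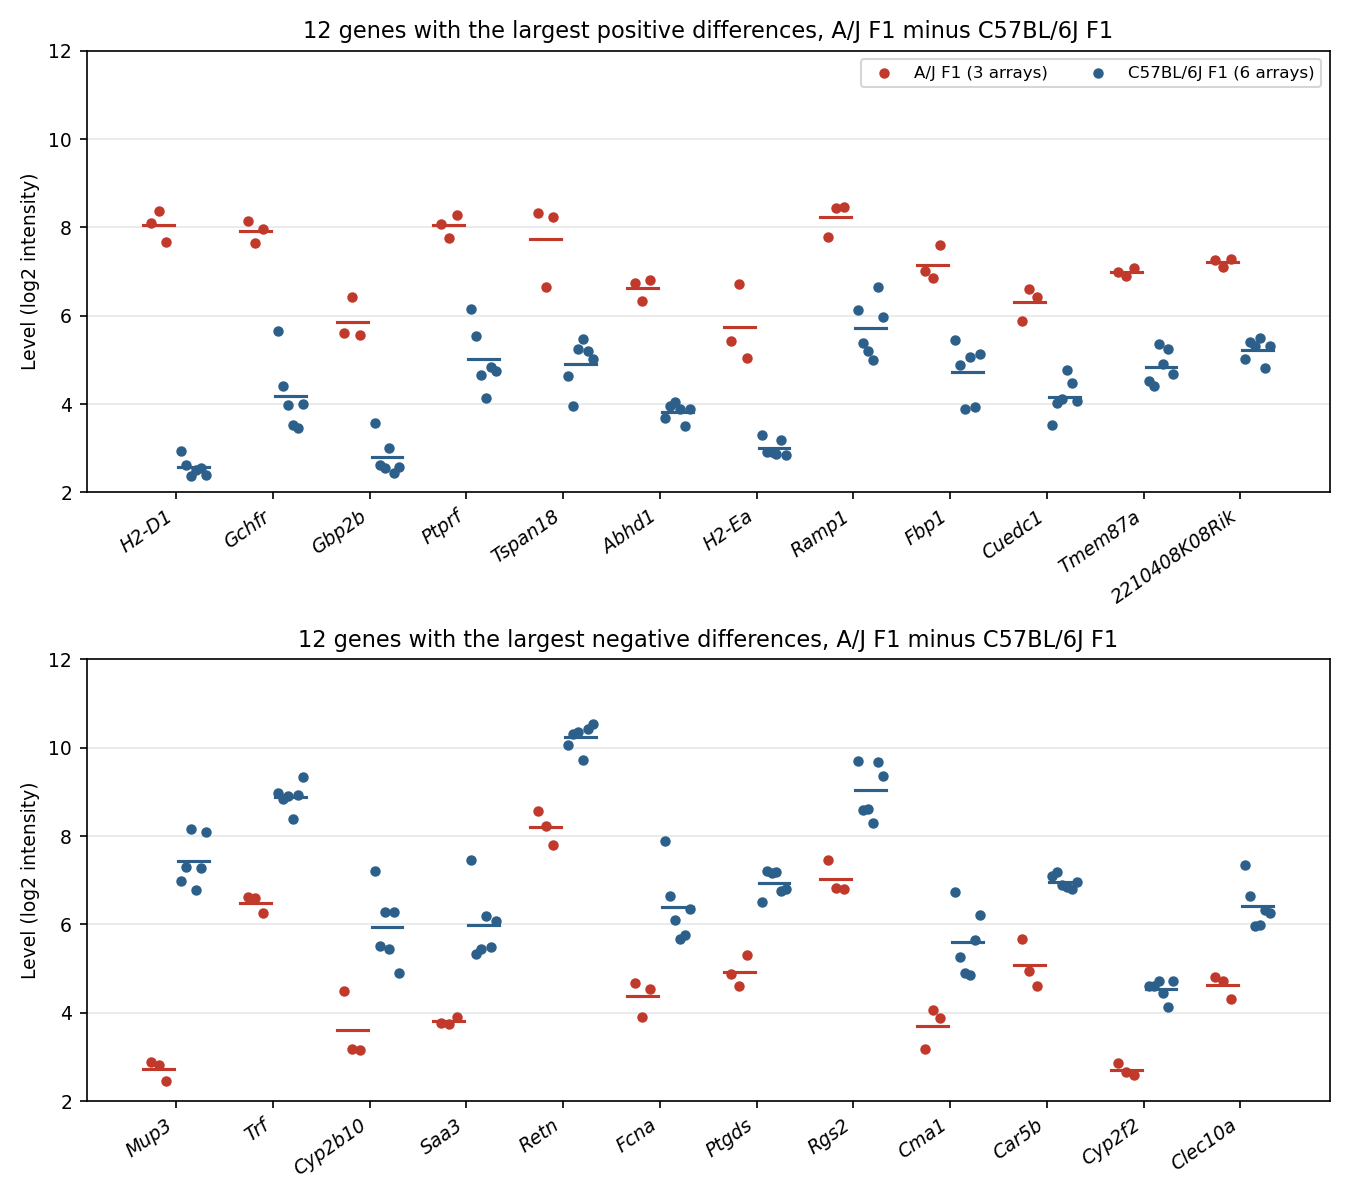
Log2 signal in each array for the 12 genes with the largest positive (top) and the 12 with the largest negative difference (bottom), with the 3 A/J F1 arrays on the left and the 6 C57BL/6J F1 arrays on the right of each gene and bars at the group means. By the rule that chose them the groups do not overlap, and they lie farthest apart for H2-D1 (8.05 against 2.57) and Mup3 (2.72 against 7.43).

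At 14 loci where A/J or C57BL/6J are known to carry variant alleles, H2-Ea and Glo1 passed and the other 12 did not. Only 7 of the 14 were read at a probe set with a mean above the median, so for the dim loci a missing call says little. Nnt, the mitochondrial transhydrogenase that is partly deleted in C57BL/6J, was at 5.60, 9.32 and 8.37 in A/J F1 against 4.93 to 6.53 in C57BL/6J F1. A/J replicate 1 was inside the C57BL/6J range while the other two were above it, and the difference of 1.98 ± 0.70 did not pass (adjusted p = 0.19; 3.06 and 0.0147 without A/J replicate 1). A/J replicate 1 also had the lowest mean level of the 17 skeletal muscle markers, 4.68 in A/J replicate 1 and 12.0 and 11.4 in A/J replicates 2 and 3, against 6.03 to 10.3 in C57BL/6J F1. With that level as a covariate the Nnt difference was 1.53 (adjusted p = 0.0394), an alternative added after the data were seen.

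Dysf, the membrane repair protein dysferlin that carries an inactivating insertion in A/J, was at 2.89, 3.24 and 3.11 in A/J F1 against 3.16 to 4.08 in C57BL/6J F1. The ranges met, and the difference of -0.64 ± 0.21 had an adjusted p of 0.147. Hc, which encodes complement C5 and is deficient in A/J, was at 2.53, 2.44 and 2.66 in A/J F1 against 2.40 to 2.81 in C57BL/6J F1, levels within the same range.

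The lower genes were led by secreted proteins made chiefly by liver. Mup3, a major urinary protein that carries small pheromones, was at 2.89, 2.81 and 2.47 in A/J F1 against 6.79 to 8.15, with a median of 7.28, in C57BL/6J F1. It fell by 4.71 ± 0.30 on the log2 scale (adjusted p = 0.00018; -5.18 in the blocked fit), with a wide space between the groups. The urinary proteins are near-identical copies of each other, so this probe set may report several of them.

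Trf, transferrin, the iron carrier of plasma, was at 6.63, 6.59 and 6.25 in A/J F1 against 8.39 to 9.33 in C57BL/6J F1, without overlap. It fell by 2.41 ± 0.18 (adjusted p = 0.000363; -2.37 in the blocked fit). Apoc3, an apolipoprotein that slows clearance of triglyceride-rich lipoproteins, was at 4.12, 3.93 and 4.48 in A/J F1 against 5.29 to 6.05 in C57BL/6J F1 and fell by 1.45 (adjusted p = 0.00658).

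Mup3, Trf and Apoc3 were the 3 of 19 measured hepatocyte markers that passed, and the median over the 19 was -0.17. Over the 6 markers with a mean above the median probe set it was -1.27. The mean of the 19 was 3.77, 3.89 and 3.69 in A/J F1 against 4.21 to 4.75 in C57BL/6J F1. Alb, albumin, the most defining marker of hepatocytes, was at 2.21, 2.35 and 2.49 in A/J F1 against 2.32 to 4.29 in C57BL/6J F1, with a C57BL/6J median of 2.52, and did not pass (adjusted p = 0.577). The part of liver RNA in these differences was not tested, and in whole tissue fewer cells of a type and less RNA per cell cannot be told apart.

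Cyp2f2 and Cyp2b10 are cytochrome P450 enzymes of xenobiotic metabolism. Cyp2f2 was at 2.87, 2.66 and 2.58 in A/J F1 against 4.13 to 4.71 in C57BL/6J F1 and fell by 1.83 ± 0.14 (adjusted p = 0.000363), but its adjusted p in the blocked fit was 0.276 at a difference of -1.86. Cyp2b10 was at 4.50, 3.17 and 3.16 in A/J F1 against 4.89 to 7.22 in C57BL/6J F1 and fell by 2.33 ± 0.49 (adjusted p = 0.0398). Its groups were separated by less than the spread within each, and the call was lost on leaving out A/J replicate 2 or 3 or C57BL/6J replicate 2, 3, 4 or 5 (adjusted p 0.0534 to 0.164).

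Retn, resistin, a hormone secreted by mouse adipocytes, was at 8.57, 8.22 and 7.80 in A/J F1 against 9.72 to 10.55, with a median of 10.33, in C57BL/6J F1. The groups were apart by over 1 log2 unit and Retn fell by 2.04 ± 0.20 (adjusted p = 0.00176; -2.18 in the blocked fit). It was the only 1 of 10 general adipocyte genes to pass. Adipoq, the adipocyte hormone adiponectin, was at 12.51, 12.23 and 12.20 in A/J F1 against 12.40 to 12.61 in C57BL/6J F1 (adjusted p = 0.375).

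Ptgds, the lipocalin-type prostaglandin D synthase, was at 4.88, 4.6 and 5.31 in A/J F1 against 6.50 to 7.22 in C57BL/6J F1 and fell by 2.01 ± 0.20 (adjusted p = 0.0017; -1.46 in the blocked fit). Car5b, a mitochondrial carbonic anhydrase, was at 5.68, 4.95 and 4.6 in A/J F1 against 6.81 to 7.19 in C57BL/6J F1 and fell by 1.89 ± 0.20 (adjusted p = 0.00237; -1.90 in the blocked fit). Neither gene overlapped between the groups, and the C57BL/6J F1 mean of Car5b was the highest of the 101 strains.

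Rgs2, which shortens Gq signalling from vasoconstrictor receptors, was at 7.47, 6.83 and 6.79 in A/J F1 against 8.29 to 9.70 in C57BL/6J F1 and fell by 2.01 ± 0.34 (adjusted p = 0.0187; 0.0503 and 0.093 without A/J replicates 2 and 3). Saa3, an acute-phase amyloid protein made by macrophages and adipocytes, was at 3.78, 3.76 and 3.90 in A/J F1 against 5.33 to 7.46 in C57BL/6J F1. The A/J arrays of Saa3 were alike, while the C57BL/6J arrays spread over 2 log2 units. Saa3 fell by 2.18 ± 0.41 (adjusted p = 0.0271), and the call was lost on leaving out any A/J replicate or C57BL/6J replicate 4 or 6 (adjusted p 0.0573 to 0.102).

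Differences of macrophage markers were mostly negative, although few passed the test singly. Of 23 measured, 22 had negative differences and 3 fell, with a median of -0.77 against -0.01 over all probe sets. The share of all probe sets called lower was 1.84%. The mean of the 23 was 5.40, 5.57 and 5.37 in A/J F1 against 5.91 to 7.06 in C57BL/6J F1, without overlap. The members that fell mark resident adventitial macrophages or the complement they secrete. Whether these markers differed more than general macrophage markers was not tested.

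Folr2, a folate receptor of resident macrophages, was at 4.62, 4.68 and 4.66 in A/J F1 against 5.45 to 7.37 in C57BL/6J F1 and fell by 1.61 (adjusted p = 0.0375). Lyve1, a hyaluronan receptor shared with lymphatic endothelium, was at 6.36, 6.47 and 6.16 in A/J F1 against 6.96 to 7.92 in C57BL/6J F1 and fell by 1.10 (adjusted p = 0.0174). C1qc, a chain of complement C1q, was at 6.53, 6.72 and 6.59 in A/J F1 against 7.37 to 8.62 in C57BL/6J F1 and fell by 1.11 (adjusted p = 0.0464). None of the 3 overlapped between groups, and the A/J arrays lay close together. C1qc lost its call on leaving out any array but C57BL/6J replicate 1 (adjusted p 0.0627 to 0.16).

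General macrophage markers did not pass. Cd68, a lysosomal protein, was at 4.14, 4.70 and 4.47 in A/J F1 against 4.73 to 6.44 in C57BL/6J F1 (adjusted p = 0.218), and Adgre1, the F4/80 antigen, was at 5.27, 5.23 and 5.26 in A/J F1 against 5.97 to 7.51 in C57BL/6J F1 (adjusted p = 0.0543). The groups did not overlap for either. The number of macrophage markers that fell was 0 without A/J replicate 3, 10 without C57BL/6J replicate 1, which had the highest mean, and 11 in the blocked fit. Lyve1 lost its call without A/J replicate 3 (adjusted p = 0.0892), and Folr2 on leaving out any array but C57BL/6J replicates 1 and 4 (0.0609 to 0.136).

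Clec10a, a galactose lectin of alternatively activated macrophages and dendritic cells, was at 4.82, 4.72 and 4.31 in A/J F1 against 5.97 to 7.34 in C57BL/6J F1, without overlap. It fell by 1.80 ± 0.28 (adjusted p = 0.0129; 0.0743 without A/J replicate 3; -1.91 in the blocked fit). Fcna, a ficolin of the lectin complement pathway, was at 4.67, 3.91 and 4.55 in A/J F1 against 5.68 to 7.88 in C57BL/6J F1 and fell by 2.02 ± 0.43 (adjusted p = 0.0429; -2.42 in the blocked fit). The Fcna call held without C57BL/6J replicate 1 only, and each of the other 8 omissions gave an adjusted p of 0.0523 to 0.135.

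Ccl6 and Ccl9, chemokines of the CC family that mouse myeloid cells make, were the 2 of 21 chemokines that fell. Ccl6 was at 7.62, 7.24 and 7.17 in A/J F1 against 8.56 to 10.23 in C57BL/6J F1 (-1.73, adjusted p = 0.0278), and Ccl9 was at 6.39, 5.87 and 6.13 in A/J F1 against 7.27 to 9.17 in C57BL/6J F1 (-1.72, adjusted p = 0.0426). The A/J arrays of both lay below every C57BL/6J array. The Ccl6 call was lost without A/J replicate 2 or 3 or C57BL/6J replicate 6 (adjusted p 0.0621 to 0.122) and that of Ccl9 without any array but C57BL/6J replicate 1 (0.0584 to 0.151), while in the blocked fit both passed, at -1.96 and -1.92.

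Markers of the lipid-laden lesion macrophage had a median difference nearer to 0 than the macrophage list, but the lists were not tested against each other. Gpnmb, a glycoprotein of foam cells, was at 4.14, 4.15 and 4.18 in A/J F1 against 4.58 to 5.33 in C57BL/6J F1 and was the only 1 of 16 to fall (-0.80, adjusted p = 0.0381), a call lost on leaving out any array but C57BL/6J replicates 2 and 4 (adjusted p 0.0504 to 0.132) and in the blocked fit (adjusted p = 0.114). Lgals3, galectin-3, was at 7.18, 7.97 and 7.0 in A/J F1 against 7.91 to 8.55 in C57BL/6J F1 and did not pass (adjusted p = 0.0892; 0.0137 without A/J replicate 2). The median over the 16 was -0.21, and over the 11 with a mean above the median probe set it was -0.26. Their list mean was 6.85, 6.82 and 6.79 in A/J F1 against 6.99 to 7.36 in C57BL/6J F1, without overlap.

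Of 16 complement genes, 15 had negative differences, with a median of -0.54 against -0.01 over all probe sets. Among the 16, 2 fell, where 1.84% of all probe sets did. C4b, the C4 component shared by the classical and lectin pathways, was at 7.52, 7.58 and 7.10 in A/J F1 against 8.58 to 9.52 in C57BL/6J F1, 1 log2 unit below at the nearest arrays. It fell by 1.52 ± 0.20 (adjusted p = 0.00647; -1.58 in the blocked fit). C1s1, the protease of the C1 complex, was at 7.77, 7.83 and 7.53 in A/J F1 against 8.07 to 8.75 in C57BL/6J F1 and fell by 0.75 (adjusted p = 0.0304; 0.052 to 0.138 without A/J replicate 1 or 3 or C57BL/6J replicate 2, 3, 5 or 6). C2, the next protease of that pathway, was at 4.95, 4.75 and 4.74 in A/J F1 against 5.63 to 7.32 in C57BL/6J F1 and missed the threshold (adjusted p = 0.0516). The mean of the 16 was 5.41, 5.45 and 5.25 in A/J F1 against 5.70 to 6.52 in C57BL/6J F1.

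All 14 fibroblast and adventitia markers had negative differences, with a median of -0.68 against -0.01 over all probe sets. Among the 14, 4 fell, where 1.84% of all probe sets did. Fbln1, fibulin-1 of the extracellular matrix, was at 5.98, 6.20 and 5.63 in A/J F1 against 6.96 to 7.75 in C57BL/6J F1 and fell by 1.38 (adjusted p = 0.00738). Scara5, a ferritin receptor of stromal cells, was at 7.76, 7.80 and 7.46 in A/J F1 against 8.47 to 9.21 in C57BL/6J F1 and fell by 1.17 (adjusted p = 0.00711). Neither overlapped, and both passed in the blocked fit, at -1.28 and -1.0.

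Dpep1, a membrane dipeptidase, fell by 1.42 (adjusted p = 0.0185) and Gsn, the actin-severing protein gelsolin, by 0.61 (adjusted p = 0.0198), and without A/J replicate 3 neither passed (0.0919 for Dpep1 and 0.0955 for Gsn). Dcn, the proteoglycan decorin, was at 11.35, 11.31 and 11.38 in A/J F1 against 11.40 to 11.95 in C57BL/6J F1 and did not pass (adjusted p = 0.118; 0.0471 without C57BL/6J replicate 4). The mean of the fibroblast markers was 7.39, 7.41 and 7.23 in A/J F1 against 7.69 to 8.56 in C57BL/6J F1. The number that fell was 2 without A/J replicate 3, 7 without C57BL/6J replicate 4 and 9 in the blocked fit.

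None of 17 collagens passed. Of 15 elastic fibre genes, Lox, the lysyl oxidase that cross-links elastin, was at 6.81, 6.60 and 7.24 in A/J F1 against 7.43 to 7.94 in C57BL/6J F1 and fell by 0.85 (adjusted p = 0.0339; 0.388 in the blocked fit). Ltbp2, a latent TGF-beta binding protein, was at 7.28, 7.30 and 7.24 in A/J F1 against 7.63 to 8.11 in C57BL/6J F1 and fell by 0.57 (adjusted p = 0.0315; 0.0556 in the blocked fit). The Lox call was lost without A/J replicate 1 or 2 or C57BL/6J replicate 3, 4, 5 or 6 (adjusted p 0.0658 to 0.09), and that of Ltbp2 without any A/J replicate or C57BL/6J replicate 3, 4 or 6 (0.0624 to 0.127). Eln, elastin itself, did not pass at 7.07, 6.96 and 6.30 in A/J F1 against 5.34 to 6.80 in C57BL/6J F1 (adjusted p = 0.201).

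Of 10 mast cell markers 2 fell, both of them proteases of mast cell granules, 4 had positive differences and the median over the 10 was -0.13. Cma1, a chymase, was at 3.18, 4.06 and 3.88 in A/J F1 against 4.86 to 6.72 in C57BL/6J F1 and fell by 1.89 ± 0.41 (adjusted p = 0.0439). Cpa3, carboxypeptidase A3, was at 3.46, 3.52 and 3.68 in A/J F1 against 4.33 to 5.93 in C57BL/6J F1 and fell by 1.53 (adjusted p = 0.0476). The groups were apart for both. The Cma1 call was lost on leaving out any array but C57BL/6J replicate 1 (adjusted p 0.0523 to 0.136), and that of Cpa3 on leaving out any but C57BL/6J replicates 1 and 4 (0.0642 to 0.146). In the blocked fit Cma1 passed (adjusted p = 0.00514) and Cpa3 did not (adjusted p = 0.0541).

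Contractile smooth muscle genes lay on the opposite side. All 20 measured had positive differences, with a median of 1.31 against -0.01 over all probe sets. Among the 20, 2 rose, where 0.563% of all probe sets did. The mean of the 20 was 8.35, 8.37 and 7.97 in A/J F1 against 6.10 to 8.03 in C57BL/6J F1, so that C57BL/6J replicate 5, at 8.03, reached the A/J range.

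Tpm2, beta-tropomyosin, was at 10.10, 10.96 and 10.42 in A/J F1 against 7.59 to 9.79 in C57BL/6J F1 and rose by 1.81 ± 0.39 (adjusted p = 0.0458). Actg2, the gamma actin of smooth muscle, was at 5.55, 5.61 and 4.89 in A/J F1 against 3.14 to 4.63 in C57BL/6J F1 and rose by 1.53 ± 0.33 (adjusted p = 0.0437). Both were apart between groups, yet each call was lost in 7 of the 9 fits without 1 array, all but those without C57BL/6J replicates 1 and 5 (adjusted p 0.0581 to 0.151 for Tpm2 and 0.0657 to 0.114 for Actg2).

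Acta2, given above, and Myh11, the smooth muscle myosin heavy chain, were higher on average but overlapped or nearly so. Myh11 was at 9.96, 9.27 and 9.02 in A/J F1 against 4.71 to 9.16, with a median of 7.68, in C57BL/6J F1 (2.17, adjusted p = 0.282), and Acta2 differed by 1.47 (adjusted p = 0.239). The number of contractile genes that rose was 0 in 6 of the 9 fits without 1 array, those without A/J replicates 2 and 3 and C57BL/6J replicates 2, 3, 4 and 6, and was 18 of 20 in the blocked fit, whose median was 2.15.

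**Figure D3:**
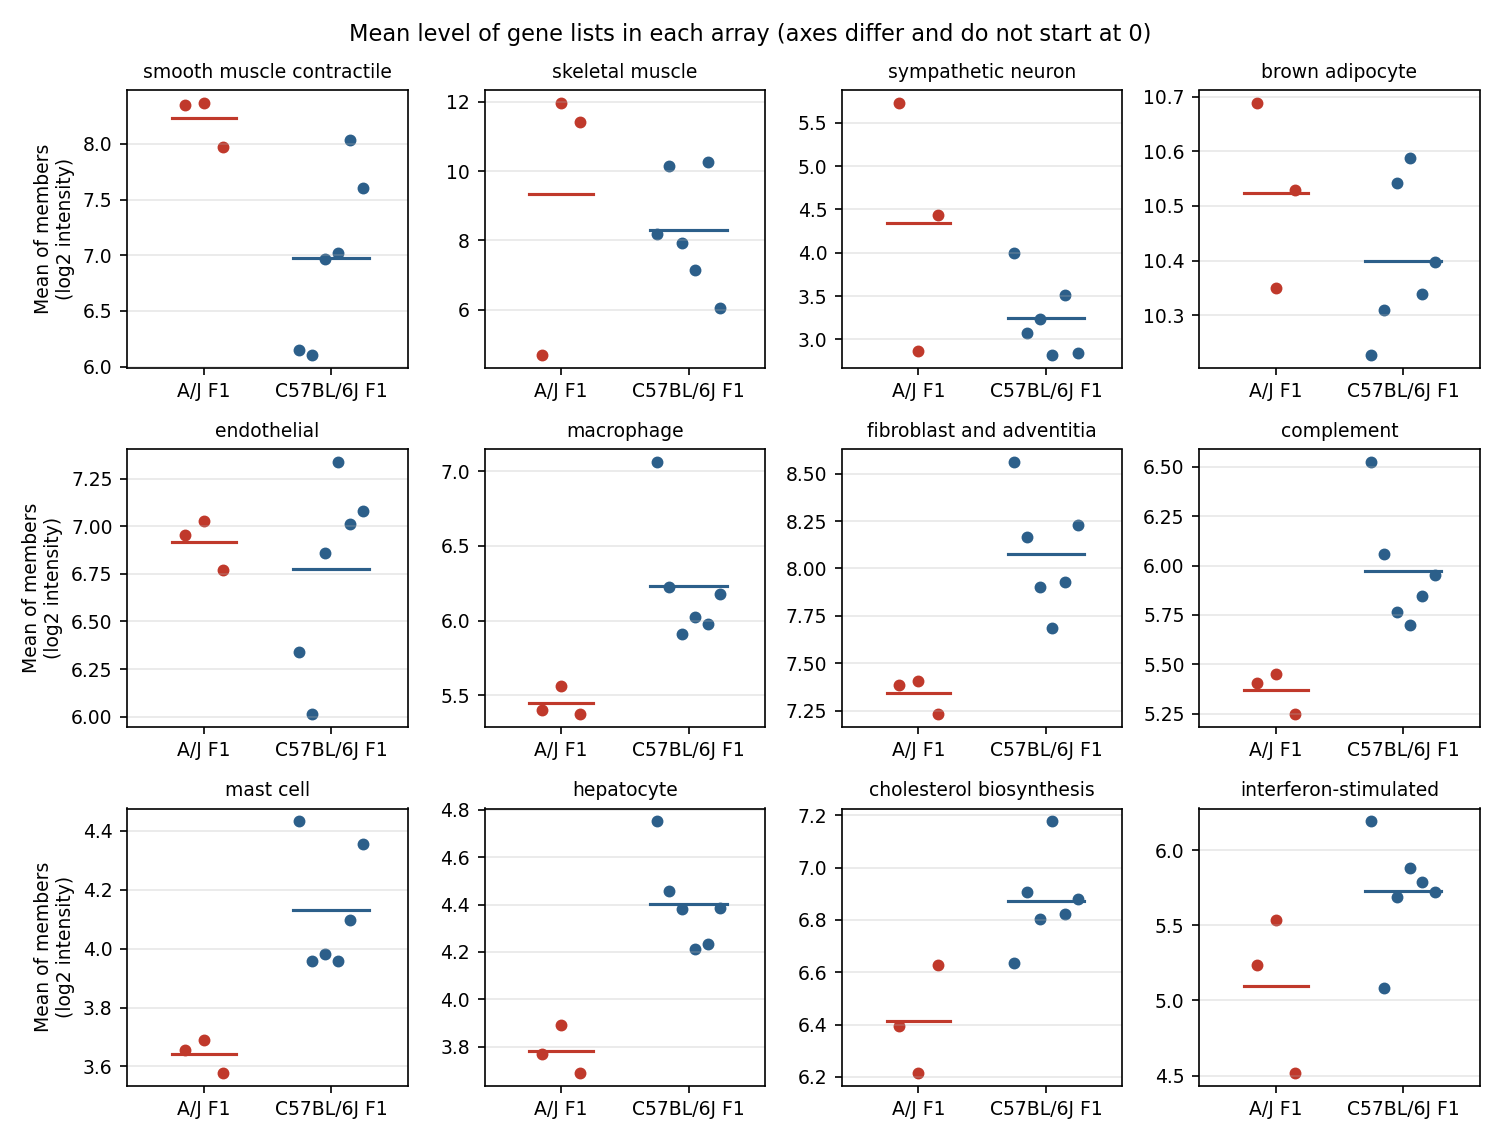
Mean log2 signal over the measured members of 12 gene lists in each array, with A/J F1 (3 arrays) on the left, C57BL/6J F1 (6 arrays) on the right and bars at the group means; each panel has its own axis, which does not start at 0. The macrophage, fibroblast, complement, mast cell and hepatocyte means do not overlap between groups. Cholesterol biosynthesis means barely miss each other (A/J F1 up to 6.63, C57BL/6J F1 from 6.64). Of the lists not shown, the foam cell, general adipocyte, nitric oxide and known-allele means do not overlap either. A/J replicate 1 is apart from the other A/J arrays for skeletal muscle (4.68) and sympathetic neuron markers (5.73).

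Of 18 cholesterol biosynthesis genes and their regulators, 16 had negative differences, with a median of -0.50 against -0.01 over all probe sets. Among the 18, 3 fell, where 1.84% of all probe sets did. Insig1, which retains the sterol-sensing complex in the endoplasmic reticulum and is itself induced when sterol is low, was at 9.15, 8.97 and 9.19 in A/J F1 against 9.57 to 9.77 in C57BL/6J F1. The arrays did not overlap and Insig1 fell by 0.57 (adjusted p = 0.00946; 0.0568 in the blocked fit).

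Cyp51, the lanosterol demethylase, was at 5.62, 5.52 and 6.38 in A/J F1 against 6.48 to 7.14 in C57BL/6J F1 and fell by 0.98 (adjusted p = 0.0324; 0.00958 in the blocked fit). Tm7sf2, a sterol reductase of the next step, was at 6.00, 5.95 and 6.34 in A/J F1 against 6.43 to 6.82 in C57BL/6J F1 and fell by 0.57 (adjusted p = 0.0384; 0.243 in the blocked fit). A/J replicate 3 was nearest to the C57BL/6J arrays for both. Cyp51 lost its call on leaving out any array but A/J replicate 3 and C57BL/6J replicate 1 (adjusted p 0.0514 to 0.0883), Tm7sf2 on leaving out any but A/J replicate 3 and C57BL/6J replicate 2 (0.052 to 0.101), and between 1 and 4 of the 18 genes passed in the fits without 1 array.

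Single members of other lists passed as well. Sod3, the extracellular superoxide dismutase, was at 6.87, 6.30 and 6.55 in A/J F1 against 7.10 to 7.46 in C57BL/6J F1 and fell by 0.75 (adjusted p = 0.0199), but the difference was -0.01 in the blocked fit (adjusted p = 0.982). It was the only 1 of 24 antioxidant genes to pass, and it lost its call without A/J replicate 3 (adjusted p = 0.0897). Hsph1, a chaperone of the heat shock response, was at 7.74, 8.16 and 8.29 in A/J F1 against 8.50 to 9.43 in C57BL/6J F1 and fell by 1.00 (adjusted p = 0.0295; 0.0535 to 0.0755 without any array but C57BL/6J replicates 1 and 2, and 0.0514 in the blocked fit). Of the 17 immediate-early and heat shock genes 16 had negative differences, and Hsph1 alone passed.

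Some lists leaned to 1 side without a call. Of 23 interferon-stimulated genes 22 had negative differences, with a median of -0.71 against -0.01 over all probe sets. Their mean overlapped, at 5.24, 5.53 and 4.52 in A/J F1 against 5.08 to 6.19 in C57BL/6J F1. All 15 sympathetic neuron markers had positive differences, with a median of 1.02, and their mean was 5.73, 2.87 and 4.44 in A/J F1 against 2.82 to 4.0 in C57BL/6J F1. The A/J arrays differed widely from each other, and 5 of the 15 passed without A/J replicate 2.

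Of 15 circadian clock genes none passed. Dbp, a clock output factor, was at 8.33, 7.58 and 7.01 in A/J F1 against 4.80 to 6.96 in C57BL/6J F1, just apart, and missed the threshold (1.96 ± 0.44, adjusted p = 0.0513; 0.0175 without C57BL/6J replicate 2). Npas2, an activator of the clock, lay the other way, at 2.86, 2.90 and 3.12 in A/J F1 against 3.22 to 4.96 in C57BL/6J F1 (-1.17, adjusted p = 0.0705).

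No member passed among the measured markers of T cells (10), B cells (10), brown adipocytes (11), white adipocytes (8), endothelium (18), cartilage (15), skeletal muscle (17), cardiac muscle (14), erythroid cells (5), Schwann cells (11) and epithelium (15). Nor did any gene of fatty acid oxidation (17), leukocyte adhesion (13) or the cell cycle (22). Several of these lists were largely dim. A mean above the median probe set was reached by 2 of the T cell, 5 of the B cell and 2 of the cartilage members. The same held for 4 of the epithelial and 7 of the cell cycle members. For dim members the lack of a call does not show that expression was alike. The 42 genes of oxidative phosphorylation had a median difference of 0.01, and none passed.

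**Figure D4:**
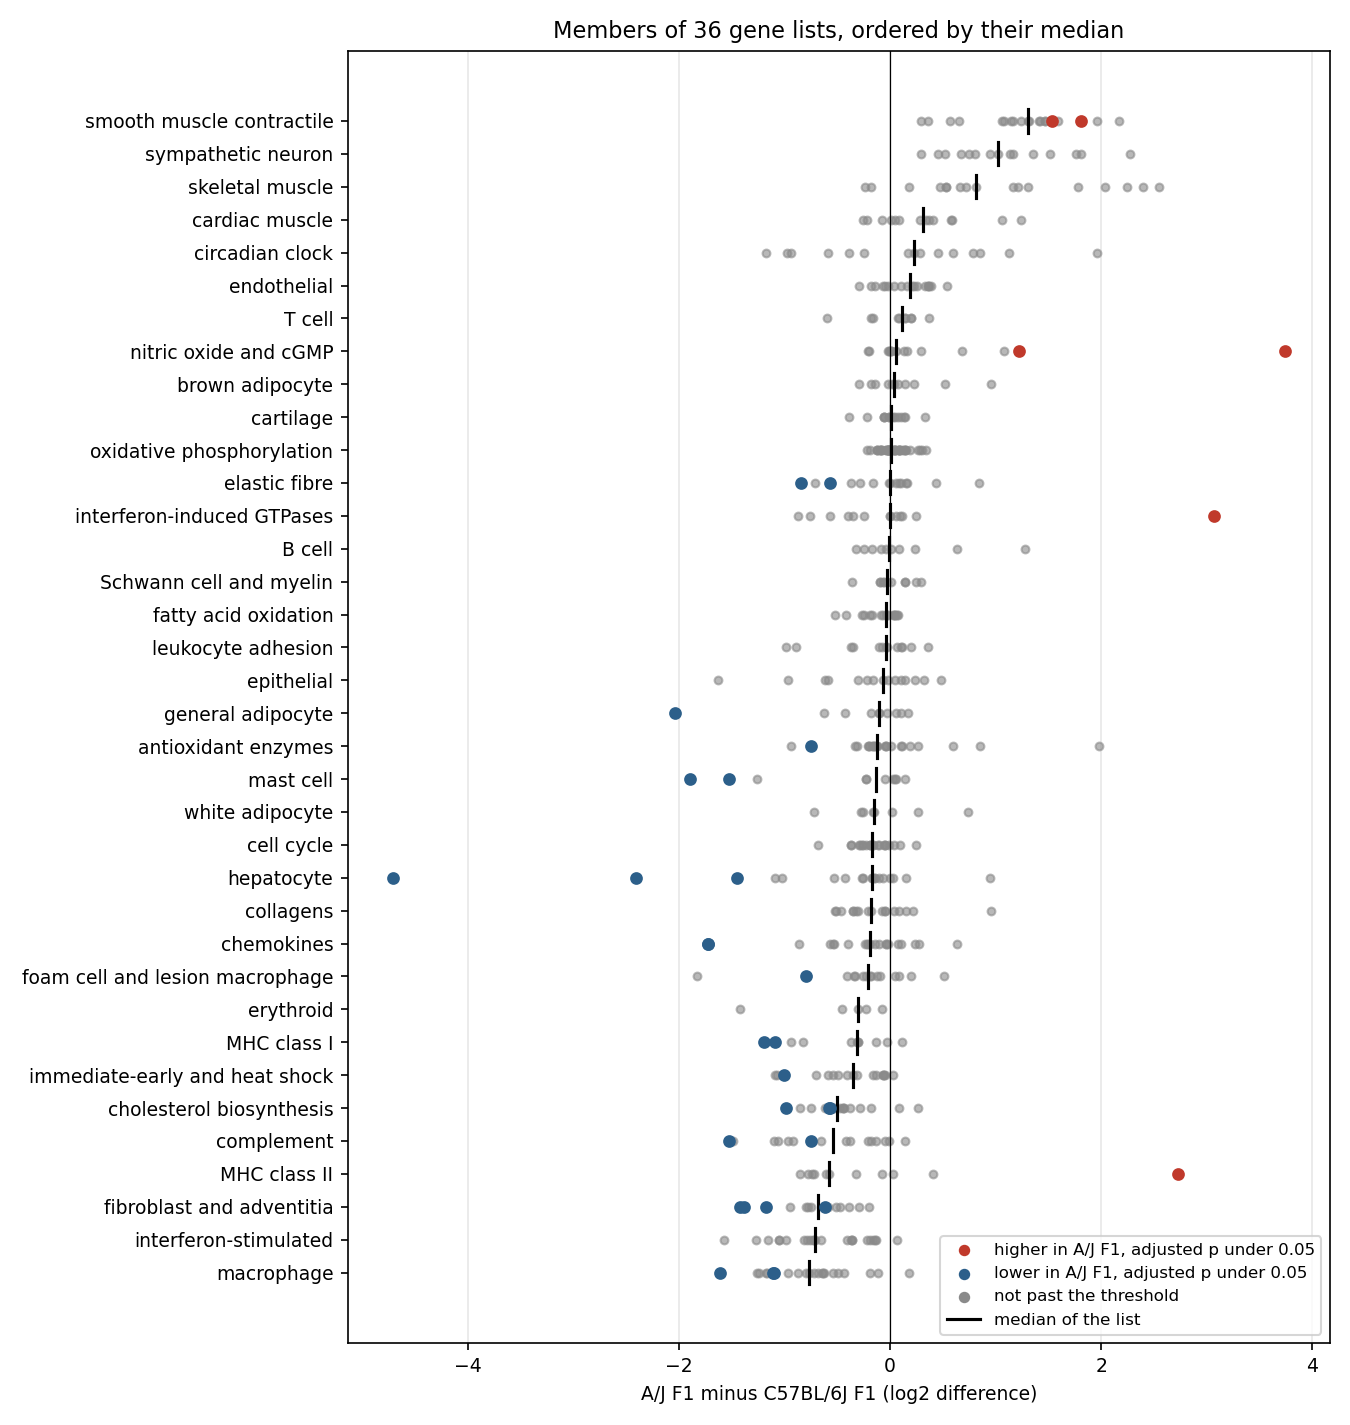
Log2 difference (A/J F1 minus C57BL/6J F1) of each measured member of 36 gene lists, ordered by the list's median (black bar); red and blue points passed an adjusted p under 0.05 and grey points did not. Contractile smooth muscle genes lie to the right of 0 (median 1.31) and macrophage markers to the left (median -0.77), while oxidative phosphorylation genes lie close to 0.

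To see whether the A/J values also differed from those of other founders of the panel, A/J F1 was compared with the mean of the BALB/cJ (4 arrays), C3H/HeJ (8) and DBA/2J F1 (5), with no C57BL/6J array in the fit. Here 510 probe sets (1.13%) differed. The A/J arrays are the same as above, so values are given gene by gene. The controls were in the high set for all BALB/cJ arrays, 3 of the C3H/HeJ and none of the DBA/2J arrays, and with the high-set arrays alone (a choice made after the data were seen) 85 probe sets differed.

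Trf was lower in A/J F1 than in these founders, with a mean of 6.49 in A/J F1 against 8.89 in BALB/cJ, 8.48 in C3H/HeJ and 8.20 in DBA/2J F1 (-2.03, adjusted p = 3.1e-05; -2.31 and 0.00156 within the high set). Ptgds (-2.10, adjusted p = 0.000648), Clec10a (-1.23, 0.00262), Fcna (-1.58, 0.0168), Cma1 (-1.51, 0.0106) and Retn (-1.03, 0.0455) were lower as well. Ccl6 (-1.16, adjusted p = 0.00248), Ccl9 (-1.02, 0.00654) and C4b (-1.21, 0.00426) had the same direction. Within the high set Fcna (adjusted p = 0.0121), Ccl6 (0.0155), Ccl9 (0.0327) and Ptgds (0.0427) passed, and Clec10a (0.154), Cma1 (0.177), Retn (0.156) and C4b (0.188) did not.

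Mup3, Saa3, Rgs2, Car5b, Cyp2f2 and Cyp2b10 did not differ from the other founders past the threshold (adjusted p 0.0827 to 0.822). Dysf did, at 3.08 in A/J F1 and a difference of -0.90 (adjusted p = 0.00448; 0.0611 within the high set). The A/J F1 mean was the lowest of the 101 strains for 9 of the 12 leading lower genes, the exceptions being Cyp2b10, Saa3 and Ptgds. Over all lower probe sets this held for 137 of 831 (16.5%), against 0.879% of all probe sets, a description that uses the same A/J arrays.

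The higher genes divided the founders in other ways. H2-D1 was at 8.05 in A/J F1, 8.69 in BALB/cJ, 2.94 in C3H/HeJ and 8.62 in DBA/2J F1, and H2-Ea was at 5.74 in A/J F1, 8.72 in BALB/cJ, 6.48 in C3H/HeJ and 8.84 in DBA/2J F1. H2-Ea was thus lower in A/J F1 than in the other founders (-2.28, adjusted p = 0.000754, and -1.76 with 0.165 within the high set) while higher than in C57BL/6J F1. Gchfr was alike in the 4 strains, at 7.91 in A/J F1 against 8.29, 8.04 and 7.93, a difference of -0.17 (adjusted p = 0.786).

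Fbp1 was at 7.15 in A/J F1 and 7.48 in BALB/cJ F1, with 3.48 in C3H/HeJ and 3.76 in DBA/2J F1 (2.25, adjusted p = 0.000103; 0.127 within the high set). Gbp2b was low in DBA/2J F1, at 2.98, and was at 5.87 in A/J F1, 6.18 in BALB/cJ and 6.25 in C3H/HeJ F1 (0.73, adjusted p = 0.051). Tmem87a was the only 1 of the 12 leading higher genes with its highest strain mean in A/J F1.

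The AXB and BXA strains offered arrays that the comparison had not used. These recombinant inbred strains descend from A/J and C57BL/6J and carry, at each locus, the allele of 1 of them, and their F1 have the same transgenic parent. Among 73 arrays of 21 such strains, a limma F test over the 19 strains with replicates found that 18082 probe sets varied (40.1%). The 21 include AXB19, AXB19a and AXB19b, which by their names may be related and were each counted as a strain. Without AXB19a and AXB19b, 17914 probe sets varied. Of the 1085 called between the parental F1, 886 varied (81.7%). With the control set as a block the shares were 25.9% of all and 58.4% of the called probe sets. Dim probe sets lower the share of all. When the F test was limited to 22570 brighter ones, 14559 varied, a larger share than 40.1%. The called probe sets were not compared with others of like brightness.

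Each of the 12 leading higher genes and 10 of the 12 leading lower genes varied among these strains, with Rgs2 (adjusted p = 0.144) and Cyp2f2 (0.062) as the exceptions. For 8 of the 12 higher genes, and for none of the lower, the widest gap between neighbouring strain means exceeded 1 log2 unit with at least 2 strains on each side, a description chosen after the values were seen. Gaps were taken for named genes only, so no share over all probe sets is given. The parental differences ran from 1.99 to 5.48 among the higher and from -1.80 to -4.71 among the lower genes. The cutoff was not scaled to these differences, and the 2 sets were not tested against each other.

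H2-D1 was at 3.3 or less in 13 AXB/BXA strains and at 8.11 or more in 8, and no strain lay between. H2-Ea gave the same split, with 13 strains at 3.56 or less and 8 at 5.39 or more. All 21 strains took the side of the same parent for H2-D1 and H2-Ea, and 18 of 21 did so for Glo1 and H2-D1. For H2-D1 paired with H2-K1, H2-Q10 and C4b the counts were 19, 17 and 15 of 21. The strain mean of C4b was nearer to that of the A/J F1 in 2 strains and to that of the C57BL/6J F1 in 19. In the GRCm38.p6 annotation Glo1, H2-K1, H2-Ea, C4b, H2-D1 and H2-Q10 follow in this order on chromosome 17.

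Gchfr was at 4.34 or less in 12 strains and at 7.40 or more in 9. Ptprf was at 5.56 or less in 15 strains and 7.48 or more in 6, Abhd1 at 4.13 or less in 14 and 5.89 or more in 7, and Tmem87a at 5.29 or less in 12 and 6.47 or more in 9. Gbp2b was low in 4 strains, at 3.24 or less, and 4.99 or more in 17, and 2210408K08Rik was at 5.30 or less in 3 and 7.02 or more in 18. The upper strain means reached beyond that of the A/J F1 for Gbp2b, at up to 7.07 against 5.87 in A/J F1, and for H2-Ea, at up to 8.32 against 5.74. The highest strain mean also exceeded that of the A/J F1 for H2-D1 (8.99 against 8.05), Gchfr (8.53 against 7.91), Ptprf, Abhd1 and 2210408K08Rik. For Tmem87a it did not, at 6.96 against 6.99 in A/J F1.

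The lower genes were spread without a step over 1 log2 unit that had at least 2 strains on each side. Trf ranged over the 21 strains from 6.82 to 8.65, between the parental means of 6.49 in A/J F1 and 8.90 in C57BL/6J F1, and Retn from 8.32 to 10.11, between 8.20 in A/J F1 and 10.24 in C57BL/6J F1. Fcna, from 5.17 to 6.37, and Clec10a, from 5.26 to 6.61, had every strain mean above that of the A/J F1. Mup3 ranged from 2.92 to 7.93, and only 1 strain mean exceeded that of the C57BL/6J F1. That strain was 1.57 above the next, at 6.36.

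**Figure D5:**
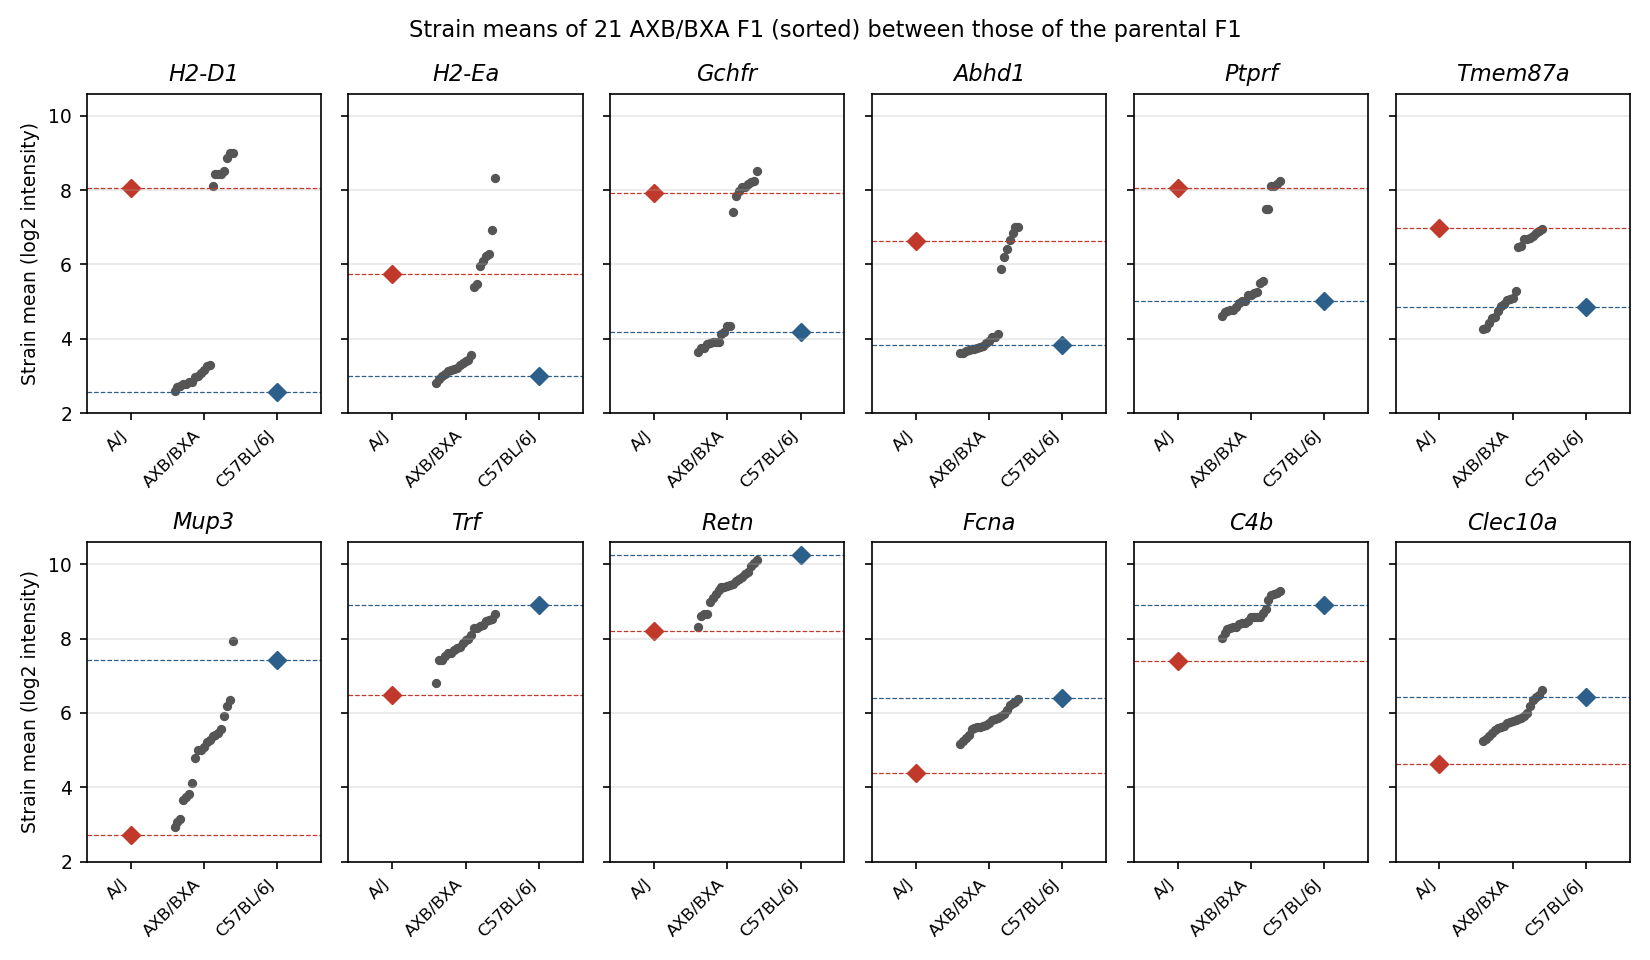
Strain means (log2 signal) of 21 AXB/BXA F1, sorted from low to high in grey, for 6 of the genes higher in A/J F1 (top) and 6 of the genes lower in A/J F1 (bottom), with the A/J F1 mean as a red and the C57BL/6J F1 mean as a blue diamond and dashed line. The strain means of H2-D1, H2-Ea, Gchfr, Abhd1, Ptprf and Tmem87a form 2 groups, 1 nearer to each parental mean. Those of the lower genes show no gap over 1 log2 unit with at least 2 strains on each side. The widest gap of Mup3, 1.57, sets 1 strain apart.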

How the data were processed

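Gene expression was measured in 366 aortas, 1 array per mouse, on Affymetrix HT MG-430 PM arrays. The deposited values were log2 intensities per probe set. Per the labels' processing notes the authors used GCOS and RMA, which corrects background, quantile-normalizes and summarizes probes; versions are not given in the sources used here. No raw scans were used. The number of arrays, 3 against 6, limits the precision.

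Differences (A/J F1 minus C57BL/6J F1) were fitted with lmFit and eBayes in limma 3.58.1 (R 4.3.3) over all 45141 probe sets, without a filter, and p-values were Benjamini-Hochberg adjusted with a threshold of 0.05. The study states no test between strains. In the same way A/J F1 was compared with BALB/cJ, C3H/HeJ and DBA/2J F1, and AXB/BXA strains by an F test. Replicates were separate mice numbered in accession order. Of the probe sets, 28898 had 1 gene symbol, 551 several and 15692 none in the platform annotation, and 99.3% of symbols matched GRCm38.p6.

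The genes named were the 12 largest differences in each direction past the threshold without overlapping arrays and with a mean above the median probe set, all loci of known alleles, and at most 3 members of each of 37 gene lists (the 2 lowest p and the highest mean), read at the brightest probe set. Other members, and the gaps among AXB/BXA strains, were chosen after their values were seen. The members and lists were chosen with earlier results of these data known.

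Alternatives were a spread shared by all strains, array weights, a trended robust prior, a filter on dim or unnamed probe sets, renewed quantile normalization, median centring, marker levels as covariates and each array left out. The control-set fits and the skeletal muscle covariate were added after the data were seen. On data simulated for these 9 arrays and 45141 probe sets, the fit called 76 of 100 probe sets changed by 1 log2 unit, 94 of 100 changed by 2, and 5 unchanged ones. The simulated noise was normal and independent between probe sets, with 1 spread for both groups and no control-set effect. These counts therefore check the fit and do not give its error rate on the real arrays.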

Additional observations from a re-analysis of the deposited data

Results flagged for a closer look

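Among 167 sets of 6 C57BL/6J F1 values, the named genes and the list means, 13 had 1 array apart from the other 5, where its gap to the nearest array exceeded 0.625 of the whole range (Dixon's test; chance gives about 1 in 20). The groups of 3 A/J F1 arrays are too small for this test.

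C57BL/6J replicate 1 accounted for 7 of the 13. It was highest for Alas2, the erythroid heme synthase, at 8.20 with the next array at 6.12, for Selplg, a selectin ligand of leukocytes, at 5.78 with the next at 4.83, and for Btbd9, at 5.06 with the next at 4.45. Its means were highest for the macrophage list (7.06, next 6.23), the foam cell list (7.36, next 7.12), the erythroid list (7.51, next 6.52) and the chemokine list (5.18, next 4.72).

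C57BL/6J replicate 2 was lowest for genes of the interferon response, with Tgtp1 at 7.26 (next 8.16), Gbp10 at 7.67 (next 8.20), Ddx58 at 5.67 (next 6.24) and the mean of the interferon-induced GTPases at 5.76 (next 6.30). It was highest for Pax5, the B cell transcription factor, at 2.87 (next 2.61). C57BL/6J replicate 4 was highest for Pparg, the adipocyte transcription factor, at 10.37 (next 10.27).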

How the results depend on the processing

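The 254 higher and 831 lower probe sets became 600 and 1629 with a spread shared by all strains, 2031 and 1162 in the blocked fit, 1333 and 1272 with the control level as a covariate, and 12 and 12 with the hepatocyte level as a covariate, which itself separates the groups. The higher count was also 545 with array weights and 383 with the skeletal muscle level as a covariate. With 1 array left out the counts ran from 76 (without A/J replicate 3) to 572 (without A/J replicate 2) and from 205 (without A/J replicate 3) to 875 (without C57BL/6J replicate 1). They moved by over 1.5 times without A/J replicate 1 (549 higher), A/J replicate 2 (572 and 480), A/J replicate 3 (76 and 205), C57BL/6J replicate 3 (127 and 370), 4 (130 and 407), 5 (518 lower) and 6 (118 and 327). The 510 probe sets differing from the other founders became 85 within the high set and 124 to 504 with 1 A/J array left out, the lowest without A/J replicate 3. The 18082 that varied among AXB/BXA strains became 11708 with the control set as a block. The cause of these shifts was not tested. Of 46 called named genes, H2-D1, Gchfr, Gbp2b, Ptprf and Abhd1 passed under every alternative, and 29 of 84 uncalled ones passed under at least 1. Of the called named genes 3 changed sign, all with the hepatocyte covariate, against 46 of the uncalled under at least 1 alternative: Fcna to 0.0825, Folr2 to 0.153 and Ccl9 to 0.0362. No paired analysis was possible because replicate numbers follow accession order.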

Other observations

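Further genes, chosen after their values were seen, differed without overlap. Olig1, a transcription factor known from oligodendrocytes, was at 6.48, 6.11 and 6.20 in A/J F1 against 4.26 to 4.99 in C57BL/6J F1 (log2 difference 1.68 ± 0.16, limma adjusted p = 0.00148; 1.59 in the blocked fit). Gpt2, the mitochondrial alanine transaminase, rose at 3 probe sets, and at 1 of them it was at 5.42, 5.67 and 5.94 in A/J F1 against 3.80 to 4.30 in C57BL/6J F1 (1.6, adjusted p = 0.000989). Vil1, the microvillar protein villin, was at 4.78, 5.03 and 4.73 in A/J F1 against 3.29 to 4.0 in C57BL/6J F1 (1.27, adjusted p = 0.0028), and it was also higher in A/J F1 than in the other founders (1.17, adjusted p = 3.1e-05).

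Igf1, insulin-like growth factor 1, fell at 3 probe sets. At 1 of them it was at 5.14, 4.13 and 4.44 in A/J F1 against 5.47 to 6.49 in C57BL/6J F1 (-1.59, adjusted p = 0.0149; 0.0788 without A/J replicate 3; -1.56 in the blocked fit), and the A/J F1 mean was the lowest of the 101 strains. Ccdc80, a matrix protein of fibroblasts and preadipocytes, was at 7.93, 8.05 and 7.89 in A/J F1 against 9.0 to 9.34 in C57BL/6J F1 (-1.20, adjusted p = 0.000671; -0.81 in the blocked fit).

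Pcx, the mitochondrial pyruvate carboxylase, was at 9.75, 9.79 and 9.64 in A/J F1 against 10.42 to 10.64 in C57BL/6J F1 (-0.80, adjusted p = 0.00172; -0.76 in the blocked fit). Slc25a1, which carries citrate out of mitochondria, was at 9.82, 9.67 and 9.85 in A/J F1 against 10.62 to 11.19 in C57BL/6J F1 (-1.15, adjusted p = 0.00384; -1.08 in the blocked fit).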
